A study of Homo sapiens with 6 samples.

Results

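The RNA content of HEK293T, a cell line from human embryonic kidney into which the large T antigen of SV40 was introduced, was compared between the input library labelled PRMT4 inhibitor and the input library of cells given the vehicle DMSO. These are 2 of the 6 libraries of a ribosome profiling study. Its treatments were DMSO and inhibitors of PRMT1 and of PRMT4, and each gave 1 input and 1 footprint library, the footprints being the stretches of RNA that ribosomes shield from nuclease. The labels name no compound, dose, time, number of cultures or added allele. The labels give total RNA as the molecule of every library, and they do not say how the input RNA was prepared. The members are all genes of the deposited table in this pair of columns: 60420 identifiers, of which 9205 reached a mean of at least 5 TPM over the 2 inputs. Of those, 8307 coded for proteins and 898 were of other types or had no type in the annotation used.

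PRMT4, also called CARM1, is an enzyme that places asymmetric dimethyl marks on arginines of histones, transcriptional coactivators, splicing proteins and RNA-binding proteins. PRMT1 is the main enzyme of the same type in most cells. The targeted activity is that of a protein, so the level of its message cannot check a label. In the order DMSO, PRMT1 inhibitor label, PRMT4 inhibitor label, the PRMT1 message stood at 136, 90.7 and 86.1 TPM and CARM1 at 32.0, 22.8 and 23.6 TPM.

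TPM is a length-scaled share of a fixed total, so every gene competes with the most abundant RNAs. The ratio used below is log2 of (TPM + 1) in the input labelled PRMT4 inhibitor over (TPM + 1) in the DMSO input. The median protein-coding gene had a ratio of -0.38, and this was subtracted from every gene, so a centred ratio of 0 means that a gene kept its level relative to the median message. A gene is called higher or lower at a centred ratio of 1 or -1, which is 2-fold. Where 3 input values are given for a gene, they stand in that order, and the value in brackets is the centred ratio. With 1 library a side there is no replicate error and no test, and every difference describes these libraries only. In a bulk library, fewer cells with an RNA and less of that RNA in each cell cannot be told apart.

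The libraries were checked before the ratios were read. The 3 inputs listed from 30576 to 30860 genes above 0. Of 13 markers of the line found in the table, 9 reached 1 TPM in both the DMSO input and the input labelled PRMT4 inhibitor, with VIM at 117 and 104 TPM. Of 20 markers of fibroblasts, blood, endothelium, liver and skin, 18 stayed under 1 TPM in both, 6 were at 0 in all inputs, and their summed level was 11.3 TPM in DMSO and 6.73 TPM under the PRMT4 inhibitor label, most of it HBA1 and COL1A1. The input ratio of the PRMT4 inhibitor label was also set against the footprint ratios of both inhibitor labels. Across 6945 protein-coding genes, the input ratio followed the footprint ratio of the PRMT1 inhibitor label (Pearson 0.58, Spearman 0.55) more closely than that of the PRMT4 inhibitor label (0.21 and 0.19). The input ratio shares no library with either footprint ratio, although the footprint ratios share the DMSO footprint. Genes are not independent replicates, and these coefficients are descriptions. The input ratio of the PRMT1 inhibitor label was not compared in this way, and why the closer footprint carries the other label was not tested. The inputs and footprints are therefore named by their labels throughout, and no direction below is tied to the enzyme.

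Non-coding RNA held a larger share of the input labelled PRMT4 inhibitor. Protein-coding genes made up 45.7%, 38.7% and 33.4% of TPM in the order given above. Long non-coding RNA held 24.3%, 25.5% and 29.8%, and entries typed as small nuclear RNA held 9.75%, 16.6% and 18.01%. The latter class counts the RN7SK entry but not the overlapping 7SK entry, which is typed as miscellaneous RNA. With both entries of that locus set apart, the locus held 6.89%, 8.70% and 10.2%, the other small nuclear RNAs, mostly of the spliceosome, 8.17%, 11.3% and 9.82%, and the other miscellaneous RNAs 1.27%, 1.72% and 1.22%. Among the genes of other types or with no type found, 154 of 898 were called higher (17.1%) and 26 were called lower (2.9%). The 83 with no type found, some of which may code for proteins, gave 15 of the higher and 4 of the lower. Ratios above 0 were found for 629 of them (70%).

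**Figure D1:**
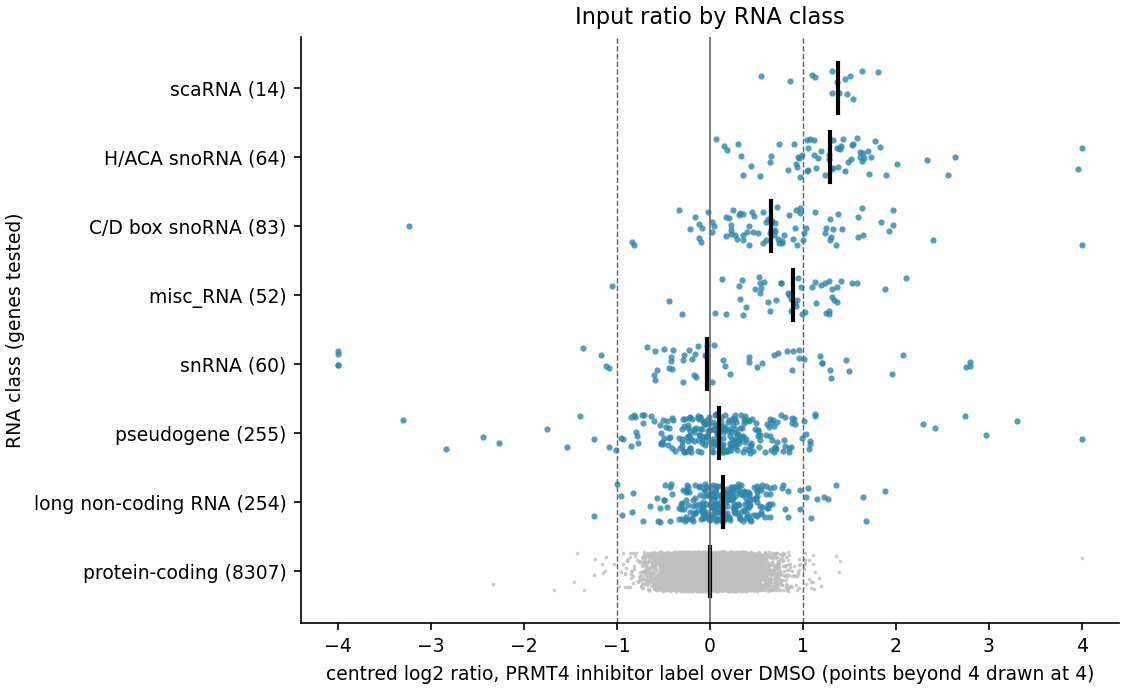
Centred log2 ratio of each tested gene (x axis, input labelled PRMT4 inhibitor over DMSO input) by RNA class (y axis, number of genes tested in brackets). Each point is 1 gene, black bars mark class medians, dashed lines mark 2-fold, and 8 points beyond a size of 4 are drawn at 4. The H/ACA snoRNAs and scaRNAs lie wholly above 0, while protein-coding genes centre on 0.

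Small nucleolar RNAs (snoRNAs) are short guides, most of them cut out of the introns of host genes. The H/ACA kind directs pseudouridylation and the C/D kind directs ribose methylation, mainly of ribosomal RNA. The scaRNAs are their relatives in Cajal bodies and modify spliceosomal RNA. Together 165 of them were tested, of which 153 had a ratio above 0 and 80 were called higher. The sequences below are the H/ACA snoRNAs with high and low ratios, shown because no member of this class lay below the median message. Capitals mark the ACA box, which lies 3 bases from the 3′ end, and U is written as T. The sequences come from the GENCODE 29 transcripts, on GRCh38, and each line is 5′ to 3′.
SNORA24B: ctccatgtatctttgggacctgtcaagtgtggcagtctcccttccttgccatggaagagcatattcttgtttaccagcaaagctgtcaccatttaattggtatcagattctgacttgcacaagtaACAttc
SNORA65: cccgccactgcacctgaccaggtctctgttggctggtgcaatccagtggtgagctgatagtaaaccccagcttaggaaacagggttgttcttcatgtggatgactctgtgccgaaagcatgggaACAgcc
SNORA52: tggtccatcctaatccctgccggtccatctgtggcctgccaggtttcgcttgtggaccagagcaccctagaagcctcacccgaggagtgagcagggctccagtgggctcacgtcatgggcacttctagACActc
SNORA24B lies at chr15:65285461-65285591 and SNORA65 at chr9:127448501-127448630, both on the minus strand. SNORA52 lies at chr11:811681-811814 on the plus strand.

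All 64 H/ACA snoRNAs tested had a ratio above 0, and 45 were called higher. Their median was 1.29, with the middle of the class between 0.96 and 1.61. It was 0.92 without centring, 1.07 with the filter at 1 TPM and 0.80 with no filter. The filter takes the mean of both inputs, so a member can pass it through the higher input alone. SNORA24B stood at 14.9, 26.0 and 71.0 TPM (ratio 2.56). SNORA65 stood at 31.1, 43.7 and 123 TPM (2.33). Each is ordered alike, with the input labelled PRMT1 inhibitor between the other pair. SNORA6 was at 0.50 TPM in the DMSO input and 42.7 TPM in that labelled PRMT4 inhibitor, and a ratio of 5.24 from so low a base is uncertain. SNORA73B, the most abundant H/ACA member, stood at 223, 247 and 373 TPM (1.12). At the low end SNORA52 stood at 58.7, 35.0 and 51.2 TPM (0.18). It had a lower TPM than in DMSO and lies above 0 only relative to the median message. The class as a whole took 0.161%, 0.193% and 0.305% of TPM.

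The 14 scaRNAs tested were alike: 14 had ratios above 0 and 12 were called higher, with a median of 1.38. SCARNA12 stood at 84.5, 74.3 and 191 TPM (ratio 1.55). SCARNA11 stood at 28.4, 61.0 and 69.3 TPM (1.63). The input labelled PRMT1 inhibitor was below DMSO for the former and close to the PRMT4 inhibitor label for the latter.

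The C/D snoRNAs were less uniform. Of 83 tested, 72 had ratios above 0, 22 were called higher and 1 was called lower, with a median of 0.66. That median was 0.28 without centring and 0.42 with no filter. The pair below shows a member far above the median message and a member at it. Capitals mark the C box near the 5′ end and the D box near the 3′ end.
SNORD41: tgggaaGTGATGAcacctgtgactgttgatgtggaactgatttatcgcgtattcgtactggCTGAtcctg
SNORD4A: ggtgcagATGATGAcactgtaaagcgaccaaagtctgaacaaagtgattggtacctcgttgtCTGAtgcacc
SNORD41 (chr19:12706449-12706518, minus strand) stood at 12.5, 18.8 and 54.0 TPM (ratio 2.4). SNORD4A (chr17:28722582-28722653, plus strand), chosen after its value was seen, stood at 152, 135 and 119 TPM (0.02). Both carry the boxes, so the boxes do not separate them. SNORD10 stood at 29.4, 28.4 and 91.1 TPM (1.98). The U3 RNA, which acts in cleavage of the ribosomal RNA precursor and is the most abundant of the class, had copies on both sides of the median message. SNORD3A stood at 3820 and 4089 TPM in DMSO and under the PRMT4 inhibitor label (0.47) and SNORD3B-1 at 482 and 208 TPM (-0.83). Summed over its 4 copies U3 had a ratio of 0.28, and of -0.09 without centring. The share of TPM in C/D snoRNAs was 0.770% and 0.778%, nearly the same in both libraries. The median ratio was 0.78 for the 16 C/D members of at most 70 bases and 0.28 for the 12 longer than 140 bases. For the 51 H/ACA members of 121 to 140 bases it was 1.28, against 1.30 for the 13 longer ones.

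The 7SK RNA holds the elongation kinase P-TEFb in an inactive complex with HEXIM1, MEPCE and LARP7. Its locus appears in the deposited table as a pair of overlapping entries, an entry of 331 bases named 7SK and an entry of 328 bases named RN7SK that lies wholly inside it. Both ends are shown because the entries differ only there. Capitals mark the 1 base at the 5′ end and the 2 bases at the 3′ end that the shorter entry lacks (GENCODE 29 transcript, plus strand of chr6:52995620-52995950, GRCh38). The windows are chr6:52995620-52995679 and chr6:52995891-52995950.
7SK at the 5′ end: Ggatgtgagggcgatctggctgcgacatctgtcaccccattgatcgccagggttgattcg
7SK at the 3′ end: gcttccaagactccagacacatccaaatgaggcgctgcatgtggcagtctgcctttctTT
The 7SK entry stood at 53086, 34544 and 19782 TPM, a ratio of -1.05. The RN7SK entry stood at 15769, 52493 and 81934 TPM, a ratio of 2.75. The entries thus lie on opposite sides of DMSO in the same libraries, and neither value alone measures the RNA. Their sum was 68855, 87036 and 101716 TPM. That sum is 1.48 times the DMSO level in TPM, and its centred ratio is 0.94, against 0.51 for the PRMT1 inhibitor label. How reads were divided between the entries was not tested.

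**Figure D2:**
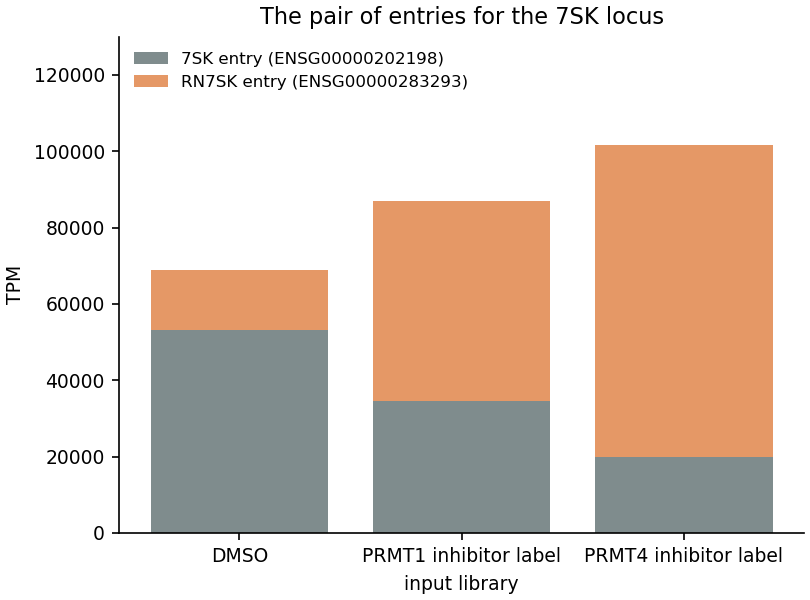
TPM (y axis) of the pair of entries for the 7SK locus, stacked, in the 3 input libraries (x axis). The 7SK entry goes from 53086 to 19782 TPM between DMSO and the PRMT4 inhibitor label while the RN7SK entry goes from 15769 to 81934 TPM, and the stacked total goes from 68855 to 101716 TPM.

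The proteins around 7SK had no common direction. Among 21 messages of P-TEFb and 7SK partners, 13 had ratios above 0 and the median was 0.07, which is -0.31 without centring. HEXIM1, the inhibitory partner of P-TEFb, stood at 9.89 TPM in DMSO and 12.5 TPM under the PRMT4 inhibitor label (0.68), and the cap-modifying enzyme MEPCE at 16.5 and 16.8 TPM (0.40). SSRP1, a subunit of the histone chaperone FACT, stood at 104 and 53.3 TPM (-0.58).

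Near-identical copies of the spliceosomal RNAs also had opposite values, and how reads were divided among them was not tested. RNU6-1, RNU6-3P and RNU6-6P, copies of U6, were each at 287 TPM in the DMSO input and listed at 0 under the PRMT4 inhibitor label. RNU6-2 and RNU6-9 went the other way, from 21.6 to 121 TPM. Summed over all copies, U6 stood at 3309 TPM in DMSO and 2103 TPM under the PRMT4 inhibitor label (-0.28). Summed U2, which binds the branch site, stood at 35331 and 49968 TPM (0.88), U4 at 2119 and 3126 TPM (0.94) and U1, which binds the 5′ splice site, at 33882 and 37880 TPM (0.54). U5 stood at 4293 and 3086 TPM (-0.10). Of the minor spliceosome, U4atac stood at 1976 and 1141 TPM (-0.42) and U6atac at 748 and 821 TPM (0.51). U7, which guides the 3′ cleavage of histone messages, stood at 70.4, 148 and 24.3 TPM (-1.13). Its level was highest in the input labelled PRMT1 inhibitor. Summed U2 (64790 TPM), U4 (3316 TPM) and U5 (6740 TPM) were highest there too. So were the summed Y RNAs (13802 TPM) and vault RNAs (2237 TPM). The summed Y RNAs had a ratio of 0.23 and the vault RNAs of 0.33, and -0.14 and -0.05 without centring.

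The long non-coding RNAs as a class were near the median message, with a median of 0.14, 10 of 254 called higher and 1 called lower. Most of the class share was AL139099.4, an entry that overlaps RN7SL1, the RNA of the signal recognition particle, on the same strand. It stood at 197148 TPM in DMSO and 244972 TPM under the PRMT4 inhibitor label (0.69). Of the 12 long non-coding RNAs with the highest ratios, SNHG20 (1.27), AL356488.2 (1.36), AC006064.5 (1.65) and SNHG22 (1.69) contain the scaRNAs SCARNA16, SCARNA2, SCARNA10 and SCARNA17 on the same strand, so their values cannot be told apart from those of the scaRNAs. AC004232.2 had no such overlap and stood at 1218, 2955 and 3465 TPM (1.88). Among nuclear long non-coding RNAs, 8 of 10 had ratios above 0, beside 174 of 254 in the whole class. The median of the 10 was 0.50, or 0.13 without centring and 0.17 with no filter. NEAT1, the scaffold of paraspeckles, stood at 14.2, 22.4 and 26.5 TPM (1.23). MALAT1, an RNA of nuclear speckles, stood at 177, 157 and 269 TPM (0.97), and TERC, the template RNA of telomerase, at 202, 234 and 324 TPM (1.05). The non-coding hosts of snoRNAs did not share the pattern of the snoRNAs: their median was 0.00 with 12 of 23 above 0, and -0.38 without centring. GAS5 stood at 248 and 280 TPM (0.55), SNHG16 at 642 and 373 TPM (-0.41).

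The remaining classes hold many near-identical copies, and their single values are uncertain. Of 52 entries typed as miscellaneous RNA, 49 had ratios above 0 and 20 were called higher, while the class share went from 6.58% to 3.20% of TPM and the 7SK entry alone from 53086 to 19782 TPM. Of 255 pseudogenes 13 were called higher and 10 lower, with RPL7P9 at 7.79, 18.5 and 65.8 TPM (3.30) and HIST2H2BB, a copy of a histone gene, at 54.6, 199 and 335 TPM (2.97). Of 19 mitochondrial ribosomal and transfer RNAs 10 were above 0, with MT-RNR2, the large ribosomal RNA of mitochondria, at 4719, 4121 and 3500 TPM (-0.06). Of 83 entries with no type found 57 were above 0.

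Protein-coding messages differed little by comparison. The middle of their ratios ran from -0.20 to 0.21, and the 1st and 99th percentiles were -0.69 and 0.77. Of 8307 messages 23 were called higher (0.277%) and 12 lower (0.144%), 35 in all (0.421%), so that 65.7% of those called were higher. That share was 2% without centring, 24.6% with no filter on low genes, 28.6% with a pseudocount of 5 TPM and 53.9% with the filter at 20 TPM. At 1.5-fold the counts were 287 (3.45%) and 198 (2.38%). These shares are the background for the gene lists below, as 50% is for ratios above 0. That background holds over all messages and differs with abundance. Ratios above 0 were found for 64.0% of the least abundant quintile and 28.7% of the most abundant, so 50% is too high for lists of abundant messages. The range between the quartiles was 0.42, against 0.26 for the input labelled PRMT1 inhibitor over the same DMSO input. Just inside the 2-fold mark were RGPD5 and PSAP at 1.01 and HMGB3 at -1.04, and just outside were SLC3A2 and RAD51B at 0.96 and G3BP2 at -0.98.

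**Figure D3:**
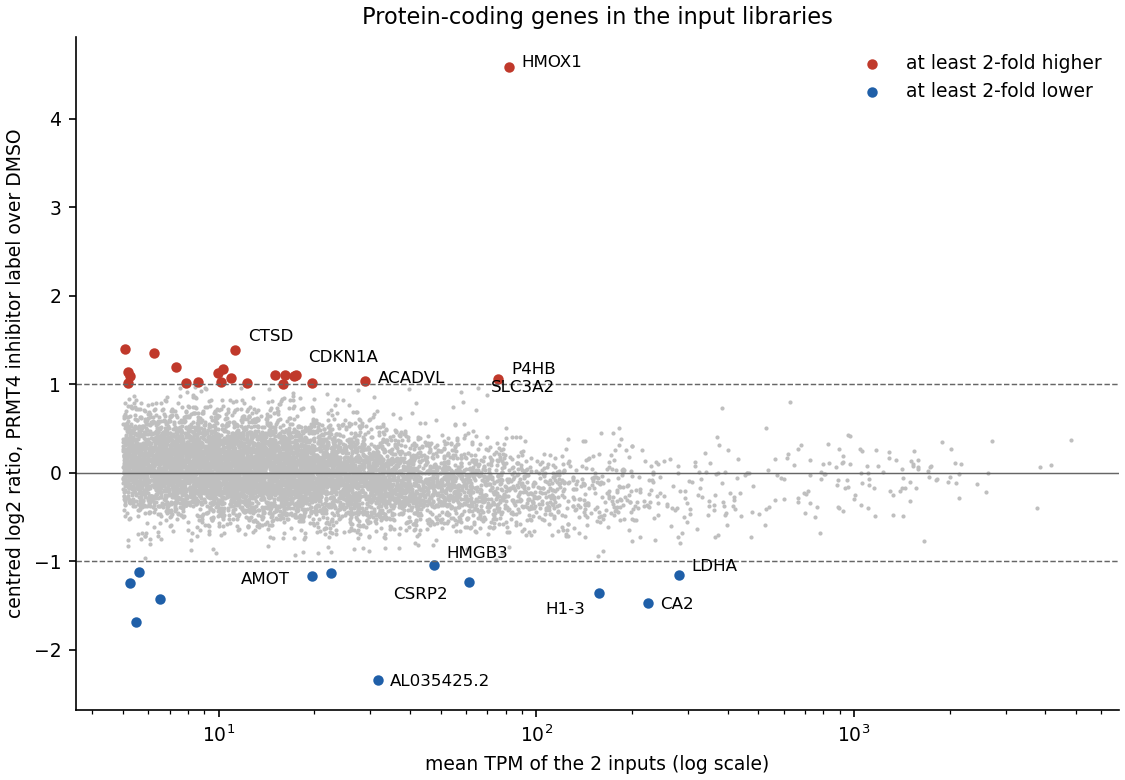
Centred log2 ratio of 8307 protein-coding genes (y axis, input labelled PRMT4 inhibitor over DMSO input) against their mean TPM in the 2 inputs (x axis, log scale). Each point is 1 gene, red and blue mark genes called higher and lower, and dashed lines mark 2-fold. HMOX1 stands alone at 4.58, most red points lie under 20 TPM, and the blue points CA2, H1-3 and LDHA lie above 100 TPM.

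The messages past 2-fold were looked up in the footprints, which the ratio does not use. In the footprints labelled PRMT1 inhibitor, 23 of the 23 were above the median message, with a median footprint ratio of 0.90, and in those labelled PRMT4 inhibitor 16 were, with a median of 0.33. Of the 12 lower messages, 9 were below the median message in each inhibitor footprint, with medians of -0.76 and -0.46. By construction 50% of all messages lie on each side. At 1.5-fold, 274 of 287 higher messages were above 0 in the footprints labelled PRMT1 inhibitor and 184 in those labelled PRMT4 inhibitor, and of the 198 lower ones 179 and 142 were below 0. Of the genes past 2-fold, 9 of the 23 and 4 of the 12 had a mean under 10 TPM, where a ratio rests on little.

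HMOX1, the stress-inducible heme oxygenase and a target of the transcription factor NRF2, had the highest ratio of all messages. It stood at 7.53, 21.6 and 156.5 TPM (ratio 4.58). In footprints, in the same order, it stood at 33.0, 642 and 93.9 TPM. The highest input and the highest footprint value therefore carry different labels.

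The other NRF2 targets were divided. GCLM, the modifier subunit of the enzyme that starts glutathione synthesis, stood at 9.35, 10.9 and 15.2 TPM (1.02). SLC7A11, the cystine transporter, stood at 3.59, 2.14 and 6.77 TPM (1.13). The ferritin chains, named after their values were seen, were also above the median message, FTH1 at 534, 599 and 719 TPM (0.80) and FTL at 336, 556 and 432 TPM (0.74). On the other side PRDX1, a peroxiredoxin, stood at 506, 400 and 284 TPM (-0.45), GSTM3, a glutathione transferase, at 45.6, 31.9 and 21.2 TPM (-0.70), and TXNRD1, thioredoxin reductase, at 87.8, 71.6 and 53.2 TPM (-0.34). Of 31 targets measured, 18 had ratios above 0, 9 passed 1.5-fold upwards and 1 downwards. The list median was 0.13, against 0.00 for all messages, and lay at -0.25 without centring and -0.05 with the filter at 20 TPM.

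Lysosomal messages stood higher relative to the median message. CTSD, the aspartic protease cathepsin D, stood at 7.11, 8.49 and 15.4 TPM (1.39). CTSA, the carboxypeptidase cathepsin A, stood at 7.16, 8.68 and 12.7 TPM (1.13), and PSAP, the precursor of the saposins that help degrade sphingolipids, at 15.2, 15.8 and 24.1 TPM (1.01). TFE3, a transcription factor of the lysosomal programme, stood at 14.1, 13.4 and 20.2 TPM (0.87), and SQSTM1, the autophagy receptor p62, at 50.1, 56.5 and 67.7 TPM (0.80). For CTSD, CTSA, PSAP and TFE3 the input labelled PRMT1 inhibitor was closer to DMSO than to that labelled PRMT4 inhibitor. Of 25 members, 20 had ratios above 0 and 10 were at least 1.5-fold higher. The median was 0.33, or -0.045 without centring and 0.13 with the filter at 20 TPM. The proton pump subunit ATP6V1A (-0.52) and the autophagy protein ATG5 (-0.48) were lower.

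Genes induced by the tumour suppressor p53, which large T antigen binds, had a median of 0.37, or -0.0062 without centring, with 20 of 25 above 0 and 8 at least 1.5-fold higher. CDKN1A, the cell cycle inhibitor p21, stood at 12.9, 10.7 and 22.03 TPM (1.11). GADD45A, a growth arrest gene, stood at 11.03, 12.4 and 19.03 TPM (1.11), and PHLDA3, an inhibitor of the kinase AKT, at 7.25, 6.82 and 13.3 TPM (1.17). All 3 had their highest footprint TPM under the PRMT1 inhibitor label. CCNG2, an unconventional cyclin, was at -0.60.

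Other messages past 2-fold had no single role. FLNA, the actin crosslinker filamin A, stood at 11.9, 10.2 and 20.4 TPM (1.11). ACADVL, which starts the breakdown of very long fatty acids in mitochondria, stood at 22.2, 18.03 and 35.7 TPM (1.04). P4HB, a protein disulfide isomerase, stood at 57.8, 63.8 and 94.0 TPM (1.07) and was the most abundant of the 23 after HMOX1. UNKL (1.09), PILRB (1.07), MIB2 (1.02) and RGPD5 (1.01) completed the set with a mean of at least 10 TPM. With a mean under 10 TPM stood AC138811.2 (1.40), SULT1A1 (1.35), a phenol sulfotransferase, SLC12A4 (1.2), a potassium-chloride cotransporter, EVA1B (1.09), SPNS1 (1.02) and AHRR (1.02), the repressor of the aryl hydrocarbon receptor. RGPD5 belongs to a family of near-identical copies, so its value is uncertain.

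At the lower end stood CA2, the cytosolic carbonic anhydrase, at 350, 206 and 97.1 TPM (-1.47). Its relative CA8 stood at 8.73, 4.58 and 2.45 TPM (-1.12). CSRP2, a LIM-domain protein, stood at 92.6, 65.8 and 29.6 TPM (-1.24), and AMOT, the Hippo pathway scaffold angiomotin, at 29.7, 18.7 and 9.60 TPM (-1.16). HMGB3, a chromatin protein, stood at 69.5, 58.9 and 25.5 TPM (-1.04), and the adaptor subunit AP3S1 at 33.8, 33.5 and 11.3 TPM (-1.13). For CA2, CSRP2 and AMOT the input labelled PRMT1 inhibitor lay between the other pair, while for AP3S1 it was level with DMSO. AP3S1 had no lower footprint under the PRMT4 inhibitor label, at 17.4 TPM in DMSO and 21.7 TPM there. AL035425.2 had the lowest ratio of all (-2.34), but it is a locus known only by a clone name, and its value is uncertain. The same holds for AC110275.1 (-1.68), AC099811.2 (-1.43) and HNRNPA1L3 (-1.25), a copy of an hnRNP gene. Among the lowest messages short of 2-fold was ITGB1BP1, an integrin-binding protein, at 111, 97.1 and 45.04 TPM (-0.91). The kinase STK26 stood at 32.4, 25.02 and 12.8 TPM (-0.90), and FAM107B at 25.1, 19.8 and 9.54 TPM (-0.93).

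**Figure D4:**
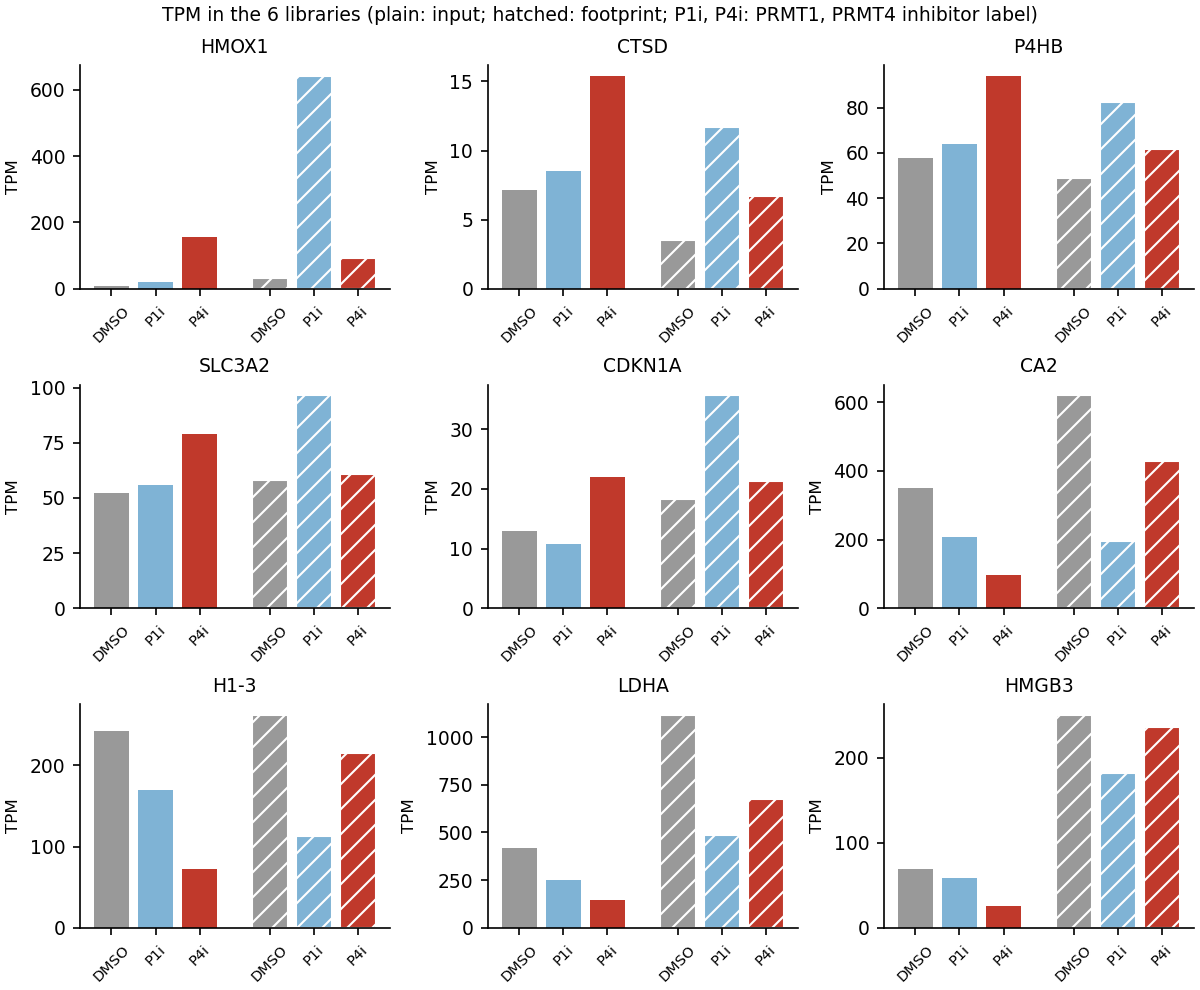
TPM (y axis, from 0) of 9 messages in the 6 libraries (x axis; plain bars are inputs, hatched bars footprints, each for DMSO and the PRMT1 and PRMT4 inhibitor labels, 1 library a bar). HMOX1 is highest at 156.5 TPM among inputs under the PRMT4 inhibitor label and at 642 TPM among footprints under the PRMT1 inhibitor label, and CA2 is lowest in the same pair of libraries, at 97.1 and 195 TPM.

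Messages of the integrated stress response, the ATF4 programme that raises amino acid uptake and synthesis, were above the median message. SLC3A2, the shared heavy chain of several amino acid transporters, stood at 52.1, 56.0 and 78.8 TPM (0.96). Its partner SLC7A5 stood at 5.93, 5.48 and 9.78 TPM (1.01), and SLC7A1, a transporter of cationic amino acids, at 12.02, 8.94 and 16.5 TPM (0.81). DDIT3, the transcription factor CHOP, stood at 6.98, 8.18 and 10.7 TPM (0.92). ATF4 itself, named after its value was seen, stood at 365, 255 and 374 TPM (0.41), and asparagine synthetase ASNS, chosen for its promoter, at 35.1, 23.0 and 37.3 TPM (0.46). ATF4 and ASNS thus held their TPM under the PRMT4 inhibitor label while the median message did not. Of 30 members 27 had ratios above 0 and 8 were at least 1.5-fold higher. Their median was 0.35, or -0.025 without centring. Under the PRMT1 inhibitor label, which shares the DMSO input, 7 of the 30 were above 0 and the median was -0.24. The aminoacyl-tRNA synthetases, many of which ATF4 also drives, had a median of -0.04 and ran from MARS1, the methionine enzyme, at 0.71 to TARS1, the threonine enzyme, at -0.47.

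Folding factors of the endoplasmic reticulum had a median of 0.35, or -0.024 without centring, with 15 of 17 above 0 and 8 at least 1.5-fold higher. The lectin chaperone CANX stood at 57.8, 64.1 and 82.5 TPM (0.88), and PDIA6, a disulfide isomerase, at 11.4, 14.8 and 17.4 TPM (0.94). HYOU1, a large chaperone of the lumen, stood at 13.1, 12.7 and 17.7 TPM (0.78). HSP90B1, the lumenal HSP90 GRP94, stood at 44.5, 50.5 and 38.4 TPM (0.17), and XBP1, a transcription factor of the unfolded protein response, at 66.4, 57.0 and 51.4 TPM (0.01). The 11 subunits of the oligosaccharyltransferase, which attaches N-glycans, were added after values were seen and had a median of 0.37, or -0.0054 without centring, with 10 above 0. The translocon, signal peptidase and signal recognition particle proteins, added in the same way, had a median of 0.15, or -0.22 without centring and -0.08 at the lowest under the other settings, with 15 of 24 above 0. The 81 solute carriers outside the mitochondrial SLC25 family, added likewise, had a median of 0.31, or -0.067 without centring, with 67 above 0 and 18 at least 1.5-fold higher. The 35 mitochondrial SLC25 carriers had a median of -0.07 with 12 above 0.

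Promoters of these groups were read from the RefSeq table on GRCh38.p14, which covers 250 bases before to 50 bases after each start and matched 6909 of the protein-coding genes tested. It was searched on both strands for the letters of known response elements. The ATF4 element TGATGNAA was in 5 of 24 integrated stress response promoters and 1.51% of all. The lysosomal element CACGTGAC was in 4 of 19 lysosomal promoters and 5.27% of all. The antioxidant element TGACNNNGC was in 6 of 22 NRF2 target promoters and 15.8% of all. The endoplasmic reticulum stress element, which pairs CCAAT and CCACG around 9 free bases, was in 4 of 16 chaperone promoters and 0.13% of all. CACGTGAC contains CACGTG, so matches to it are also matches to the plain E-box counted further on. Windows of up to 80 bases that end at or before the start are shown for members with high and low ratios. Capitals mark the fixed letters of the match nearest the start, on the gene's strand or as its reverse complement.
ASNS: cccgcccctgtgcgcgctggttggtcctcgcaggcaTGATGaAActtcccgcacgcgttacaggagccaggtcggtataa
CTSD: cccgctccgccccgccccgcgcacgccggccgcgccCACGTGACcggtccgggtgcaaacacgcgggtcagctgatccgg
CTSA: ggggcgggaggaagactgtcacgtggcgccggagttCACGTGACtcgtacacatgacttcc
GCLM: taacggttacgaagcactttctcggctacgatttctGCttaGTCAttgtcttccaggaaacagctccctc
CANX: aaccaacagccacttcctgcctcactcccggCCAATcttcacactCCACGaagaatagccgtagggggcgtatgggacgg
HSP90B1: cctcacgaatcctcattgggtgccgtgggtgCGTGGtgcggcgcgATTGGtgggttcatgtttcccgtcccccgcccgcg
These windows lie at chr7:97872433-97872512 for ASNS, chr11:1763931-1764010 for CTSD and chr1:93909431-93909500 for GCLM, on the minus strand. Those of CTSA (chr20:45891274-45891334), CANX (chr5:179698747-179698826) and HSP90B1 (chr12:103930290-103930369) are on the plus strand. The element is in both CANX, at a ratio of 0.88, and HSP90B1, at 0.17, so its letters do not separate them. CACGTGAC is likewise in CTSD and CTSA, past 2-fold, and in ATP6V0D1, a proton pump subunit at -0.03. TGACNNNGC is in GCLM (1.02), PIR (0.82) and ME1 (0.28), and also in FECH (-0.06), TXNRD1 (-0.34) and PGD (-0.36). Over all promoters with TGATGNAA the median ratio was 0.00, over the 364 with CACGTGAC it was 0.04 and over the 1091 with TGACNNNGC 0.00. Over the 9 promoters with the endoplasmic reticulum stress element it was 0.46, against -0.004 over those without it. Only 9 promoters carry it, and 4 of them are the chaperone promoters counted above. A match is a description of the letters and not evidence of binding.

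Messages of the ribosome biogenesis, hnRNP and Sm, LSm and SMN lists had medians below 0 in every scaling tried. Of 64 ribosome biogenesis factors 59 had ratios below 0, 5 were at least 1.5-fold lower and none was higher by that much, with a median of -0.32. NPM1, the abundant nucleolar protein nucleophosmin, stood at 2287, 1598 and 1033 TPM (-0.77). WDR12, of the PeBoW complex that matures the large subunit, stood at 95.2, 70.1 and 47.4 TPM (-0.62), and the helicase DDX18 at 35.9, 25.04 and 17.2 TPM (-0.64). All 3 were ordered alike, with the input labelled PRMT1 inhibitor in between. The proteins that bind H/ACA RNAs, named after their values were seen, were also below the median message although their RNAs were above it. The pseudouridine synthase DKC1 stood at 61.6, 54.3 and 37.3 TPM (-0.33), NHP2 at 225, 162 and 133 TPM (-0.38) and NOP10 at 176, 141 and 95.4 TPM (-0.50). FBL, the methyltransferase of C/D RNAs, stood at 285, 185 and 169 TPM (-0.38). The E-box CACGTG was in 21 of 58 ribosome biogenesis promoters and 11.1% of all, and the median ratio over all 766 promoters with it was 0.00.

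The hnRNP proteins, which package nuclear transcripts, had 21 of 26 below 0 and a median of -0.35. HNRNPK stood at 277, 208 and 124 TPM (-0.77), and HNRNPC at 643, 436 and 301 TPM (-0.72). HNRNPH1 stood at 309, 238 and 250 TPM (0.08) and so was level with the median message. The Sm, LSm and SMN proteins, which build the small nuclear ribonucleoproteins, had 27 of 31 below 0 and a median of -0.32, with SNRPG at 382, 337 and 177 TPM (-0.73). Of the RNAs that carry Sm or LSm rings, U1, U2, U4 and U6atac (0.51) were above the median message in the same library. U5 (-0.10), U6 (-0.28), U4atac (-0.42) and U7 (-1.13) were below it. The SR splicing factors had a median of -0.01, which turned to 0.04 when protein-coding TPM was rescaled and to 0.05 when GC content and length were adjusted for. They ran from CLK3, a kinase of these factors, at 0.23 to SRRM1, a nuclear matrix splicing coactivator, at -0.63.

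Mitochondrial and energy genes were mostly below the median message. Mitochondrial ribosomal proteins had 69 of 79 below 0 with a median of -0.27, and nuclear subunits of oxidative phosphorylation 66 of 76 with -0.26. ATP5MC1, a subunit of the proton ring of ATP synthase, stood at 115, 74.7 and 49.1 TPM (-0.83). The 10 mitochondrially encoded messages tested were all below 0, with a median of -0.50. MT-CO1 stood at 66.2, 48.2 and 43.6 TPM (-0.22) and MT-ATP6 at 31.2, 18.5 and 12.9 TPM (-0.84). LDHA, lactate dehydrogenase A, stood at 417, 251 and 144 TPM (-1.15), and PGK1, phosphoglycerate kinase, at 224, 139 and 89.5 TPM (-0.94). PKM, pyruvate kinase, stood at 499, 286 and 233 TPM (-0.72). GAPDH, of the same pathway, stood at 919, 640 and 701 TPM (-0.01), level with the median message. Of 18 glycolysis genes 16 were below 0 with a median of -0.21. Of 20 targets of the hypoxia factor HIF-1, a list that shares LDHA and PGK1, 15 were below 0 with a median of -0.42, while VEGFA, the endothelial growth factor, was at 0.42. The hypoxia core ACGTG was in 9 of 16 HIF-1 target promoters and 28.7% of all.

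DNA replication genes had 47 of 57 below 0 and a median of -0.21. MCM7, a subunit of the replicative helicase, stood at 126, 71.3 and 59.1 TPM (-0.70), MCM6 at 19.4, 14.9 and 9.14 TPM (-0.63) and CDC6, which loads the helicase, at 41.4, 43.4 and 21.1 TPM (-0.56). The 6 subunits MCM2 to MCM7, a list added after values were seen, had a median of -0.50 with 5 below 0, and MCM5 at 0.04 was the exception. LIG1, the DNA ligase of replication, stood at 18.4, 18.6 and 20.2 TPM (0.50), so the group was not uniform. MYC, a transcription factor of growth genes, stood at 171, 124 and 80.1 TPM (-0.71). Enzymes of nucleotide and polyamine synthesis had 20 of 25 below 0 and a median of -0.32, with PPAT, which commits to purine synthesis, at 31.0, 24.9 and 14.4 TPM (-0.68).

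Linker histones, which bind DNA between nucleosomes, were below the median message in 5 of 5. H1-3 stood at 243, 169 and 72.4 TPM (-1.36). H1-4 stood at 1858, 1331 and 1145 TPM (-0.32) and H1-2 at 1613, 1183 and 1045 TPM (-0.25). H1-3 thus stood apart from its close relatives in the input labelled PRMT4 inhibitor, and in that labelled PRMT1 inhibitor it did not, at -0.35 against -0.31 and -0.28. Their promoters carry the H1 box AAACACA, marked in capitals, which was in 3 of 4 linker histone promoters and 2.62% of all.
H1-3: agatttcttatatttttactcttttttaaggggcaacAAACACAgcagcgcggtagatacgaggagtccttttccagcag
H1-4: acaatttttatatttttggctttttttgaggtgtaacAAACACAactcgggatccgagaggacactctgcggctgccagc
H1-2: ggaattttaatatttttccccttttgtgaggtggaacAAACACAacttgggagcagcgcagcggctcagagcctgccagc
The windows lie at chr6:26235064-26235143 (minus strand), chr6:26156175-26156254 (plus strand) and chr6:26056547-26056626 (minus strand) of GRCh38.p14. The box begins 119, 117 and 119 bases before the start, so its position does not separate H1-3 from the others. The replication-dependent core histones, whose genes are near-identical copies and so uncertain singly, had 27 of 38 below 0 and a median of -0.19, with none past 1.5-fold. With the trend on abundance subtracted, that median was -0.04.

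Other groups centred near the median message. Large and small subunit ribosomal proteins had medians of 0.02 and 0.04, and -0.35 and -0.34 without centring. RPS2, the most abundant of them, stood at 4842 TPM in DMSO and 4819 TPM under the PRMT4 inhibitor label (0.37), and RPS26 at 229 and 95.5 TPM (-0.88). Zinc fingers of the KRAB type, transcriptional repressors, had a median of -0.01 with 7 of 14 above 0, while under the PRMT1 inhibitor label 14 of 14 were above 0 with a median of 0.38. Arginine methyltransferases and their partners had a median of -0.18, from PRMT7 at 0.38 to COPRS, a partner of PRMT5, at -0.52, and PRMT8 was listed at 0 in all 6 libraries. Known substrates of CARM1 had a median of -0.06, with 9 of 22 above 0.

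Smaller differences were found in several other lists, whose medians all lay below 0 without centring. Selenoproteins had a median of 0.24, or -0.14 without centring, with 10 of 16 above 0. TXNRD2, the mitochondrial thioredoxin reductase, stood at 5.54, 6.21 and 8.16 TPM (0.86), and SELENOS, of the endoplasmic reticulum, at 6.93, 8.52 and 10.02 TPM (0.85). Cholesterol and fatty acid enzymes had a median of 0.13, or -0.22 with the filter at 20 TPM, with 19 of 28 above 0. They were led by FADS1, a fatty acid desaturase, at 9.32, 7.67 and 12.8 TPM (0.80). Immediate early genes and MYC had a median of 0.17 and 13 of 18 above 0, from ID1 at 13.3, 15.1 and 17.9 TPM (0.78) to MYC. ID2, a relative of ID1 that likewise blocks differentiation factors, stood at 224, 196 and 113 TPM (-0.61). Tubulins and actin genes had 21 of 31 below 0 and a median of -0.20, or -0.07 with the trend on abundance subtracted. The abundant TUBA1B stood at 1844, 1218 and 1012 TPM (-0.49). Mitosis genes had a median of -0.08 with 32 of 45 below 0, and SPC25, of the kinetochore, stood at 26.4, 23.3 and 10.3 TPM (-0.90). Proteasome subunits had a median of -0.09, translation factors -0.05, heme and iron genes 0.01 and interferon-stimulated genes 0.08. Polyadenylated histone variants had a median of 0.00 with 4 of 8 above 0, carbonic anhydrases and pH transporters of -0.08 with 3 of 7, and the 2 metal response genes measured had a median of 0.06. Cytosolic heat shock proteins had a median of -0.12, from DNAJB1 at 40.1, 39.1 and 45.7 TPM (0.56) to HSPA4 at 67.7, 55.6 and 33.4 TPM (-0.62). Histone supply factors had a median of -0.13, with SLBP, which binds the stem-loop of histone messages, at 96.99, 84.3 and 49.99 TPM (-0.57). The TMEM genes, a group joined by name alone and added after values were seen, had a median of 0.22, or -0.16 without centring, with 63 of 84 above 0.

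**Figure D5:**
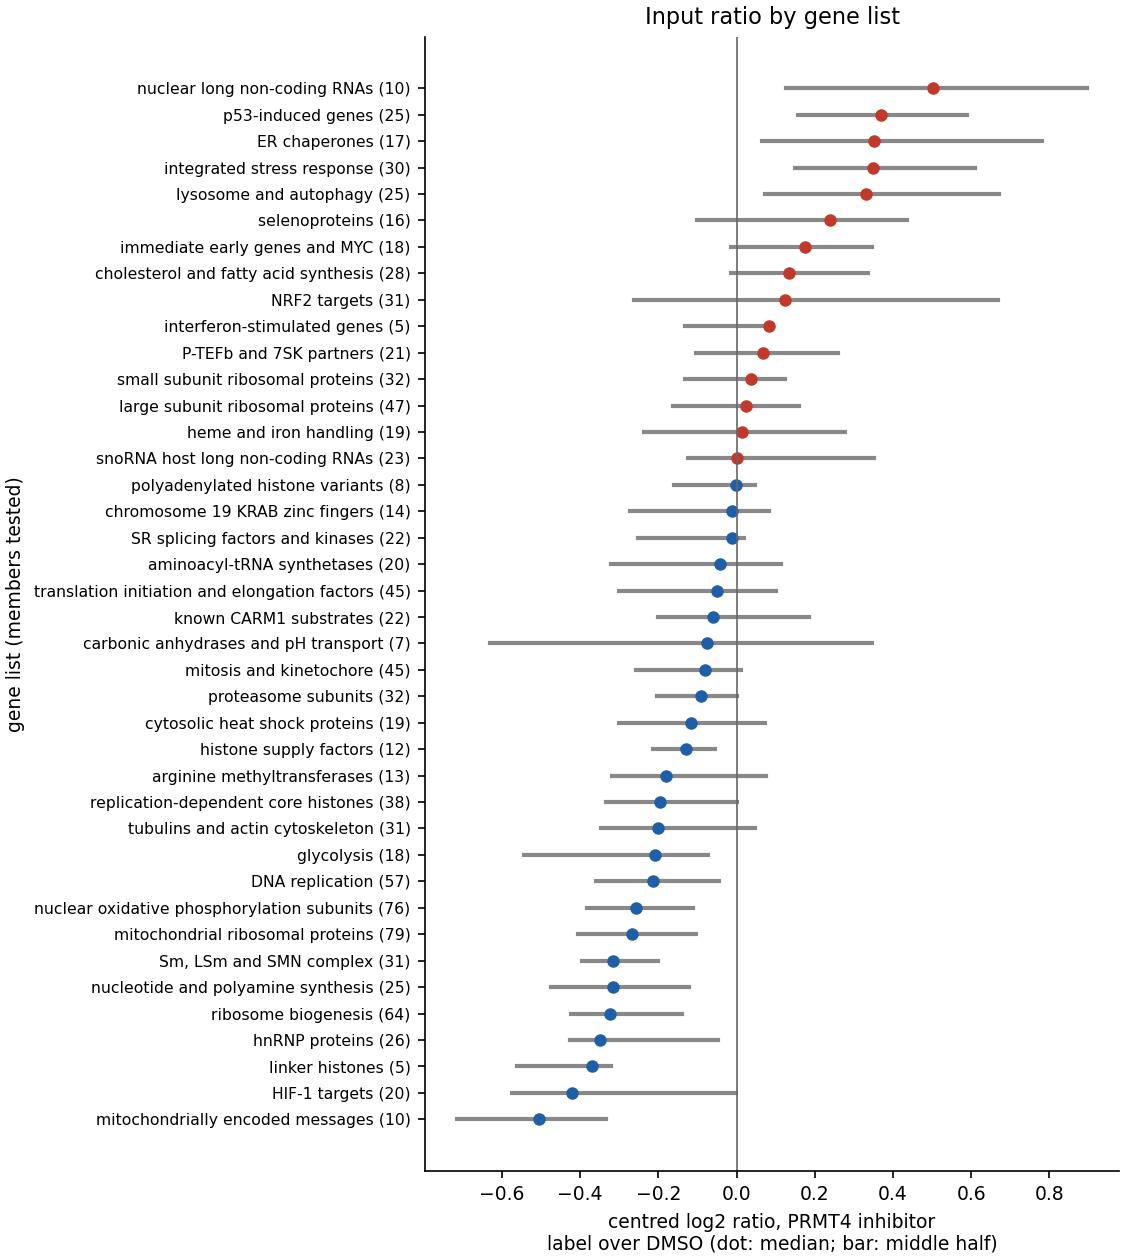
Median centred log2 ratio (x axis, dot) and range between quartiles (bar) for each list of genes set with the design that had at least 5 members tested (y axis, number tested in brackets), input labelled PRMT4 inhibitor over DMSO input. Medians run from -0.50 for mitochondrially encoded messages to 0.50 for nuclear long non-coding RNAs; without centring every dot moves 0.38 to the left, which puts stress response (-0.025), chaperone (-0.024), p53 (-0.0062) and lysosome (-0.045) lists just below 0.

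The ratio also varied with the properties of the messages. From the quintile lowest in GC content to the highest, the median ratio went from -0.12 to 0.16, and the highest quintile held 14 of the 23 messages called higher. The median GC content of the longest transcript was 58.2% for the 23 higher messages, 44.7% for the 12 lower ones and 48.0% for all. From the shortest to the longest quintile the median ratio went from -0.08 to 0.02, and from the least to the most abundant from 0.11 to -0.15. With the trend on abundance subtracted, the median of nuclear oxidative phosphorylation subunits went from -0.26 to -0.09. Nucleotide and polyamine synthesis went from -0.32 to -0.15, glycolysis from -0.21 to -0.12, hnRNP proteins from -0.35 to -0.20 and ribosome biogenesis from -0.32 to -0.24. Replication-dependent core histones went from -0.19 to -0.04 and tubulins and actin genes from -0.20 to -0.07. The p53-induced genes went from 0.37 to 0.47 and the solute carriers from 0.31 to 0.24. After adjustment for GC content and length 10 of the 23 remained called higher and 10 of the 12 called lower, and all kept their direction.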

How the data were processed

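RNA of HEK293T cells was measured by sequencing in 3 input and 3 footprint libraries, 1 a treatment. The authors deposited TPM per gene, with 1 column per library. RSEM 1.2.22, STAR 2.4.2a, cutadapt 1.18, Bowtie 1.1.2 and the build GRCh37.p13 were named, per the submitters' processing notes, with no roles given. Because TPM does not retain sequencing depth, that depth is unknown, and neither intervals nor tests on counts could be computed. No column was without a library. Of 60461 identifiers, 41 pseudoautosomal Y copies, all at 0, were dropped. Names and types for 56157 identifiers, lengths and GC content came from GENCODE 29 (GRCh38), and 4263 had no type there.

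Ratios were computed with Python 3.11.15 (statsmodels 0.14.6, scipy 1.17.1, pandas 2.3.3, numpy 2.4.6), with a pseudocount of 1 TPM, which understates low genes, for genes with a mean of at least 5 TPM over the 2 inputs. They were centred on the protein-coding median. The code was tested on simulated data. The text names the 15 highest and lowest messages with a mean of at least 10 TPM, up to 4 members at each end of a list, up to 6 at each end of an RNA class and its most abundant members, and says where another was chosen. The members and lists were chosen with earlier results of these data known. Of the lists, 41 were set with the design and 7 added after values were seen. 1 of the added lists, 1 of the lowest messages and some sequences are not reported here. Pseudocounts, filters, centring, rescaling and adjustments for GC content, length and abundance were tried as alternatives.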

Additional observations from a re-analysis of the deposited data

Results flagged for a closer look

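The integrated stress response list was on opposite sides of the median message in the inputs of the inhibitor labels. Its median was 0.3504 under the PRMT4 inhibitor label, with 27 of 30 members above 0, and -0.24 under the PRMT1 inhibitor label, with 7 of 30 above 0. Both ratios share the DMSO input and each rests on 1 library a side, and the difference was not tested. ASNS stood at 23.0 TPM under the PRMT1 inhibitor label and 37.3 TPM under the PRMT4 inhibitor label, and ATF4 at 255 and 374 TPM.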

How the results depend on the processing

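No paired analysis was possible because each group had 1 library and the ratios come from no test, and no library could be left out. Of the 35 messages past 2-fold, all that could be measured kept their direction under each of the 11 alternatives run for them. They were chosen for large ratios, and settings that mainly shift the centre could not turn them, so this shows little. Of the 23 higher messages, 2 stayed past 2-fold with a pseudocount of 5 TPM, 3 without centring and 5 with no filter. Of the 12 lower messages, 5, 12 and 12 did. Counts depended on the settings, and the non-coding genes counted here include the entries with no type found. With a pseudocount of 5 TPM, 2 protein-coding genes were called higher and 5 called lower, and 94 non-coding genes were called higher. With the filter at 20 TPM the counts were 7 and 6 protein-coding and 86 and 12 non-coding. With the filter at 1 TPM, 294 non-coding genes were higher and 54 lower. With no filter, which also moved the centre, the counts were 14 and 43 protein-coding and 287 and 74 non-coding. Without centring, they were 3 and 147 protein-coding and 73 and 52 non-coding. The share of higher genes among protein-coding genes past 2-fold was 65.7%, against 2% without centring, 24.6% with no filter, 28.6% with a pseudocount of 5 TPM, 53.9% with the filter at 20 TPM and 73.9% after rescaling protein-coding TPM. Over the input labelled PRMT1 inhibitor, a comparison chosen after seeing the data, 15 protein-coding genes were higher and 13 lower. Of 47 list medians, 23 were at least 0.2 from 0, and 8 of these reversed, each without centring only: integrated stress response -0.025, ER chaperones -0.024, p53-induced genes -0.0062, lysosome and autophagy -0.045, selenoproteins -0.14, oligosaccharyltransferase -0.0054, solute carriers -0.067 and TMEM genes -0.16. Without centring, the median member of each of these 8 lists thus lay nearer its DMSO level than the median message, at -0.38. Summing U6 copies, also chosen after seeing the data, turned the RNU6-9 entry from 2.80 to -0.28. Rescaling and the adjustment for GC content and length were not run for non-coding genes. Since TPM gives no depth, the limits that depth sets are unknown.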
